A study of Mus musculus with 7 samples.

Results

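The 6 lipoprotein receptor genes Vldlr, Lrp1, Lrp8, Lrp2, Sorl1 and Scarb1 were taken by their symbols from the 27179 genes counted in mouse femoral bone. They were chosen by the difference of Vldlr counts between the genotypes in these same libraries, together with its relatives, so that the differences between genotypes given here for all 6 genes are a description and carry no test. RNA was sequenced from flushed femora of females aged 12 weeks on a C57BL/6 background, with 3 libraries labelled Dmp1Cre.EfnB2f/f (called floxed after their label) and 4 labelled Dmp1Cre (the controls), and the study compared these groups to find how loss of ephrin B2 changes gene expression in bone. In Dmp1Cre.EfnB2f/f mice, Cre recombinase driven by a fragment of the DMP1 promoter, which is active in late osteoblasts and osteocytes, acts on floxed Efnb2 alleles. The Dmp1Cre controls carried the same Cre transgene with wild-type Efnb2, and were littermates or cousins. All mice were fasted before collection. Each library came from 1 mouse, so p-values measure the spread between these mice. Femora were collected on 2 occasions, with 2 floxed and 3 control mice on the first and 1 of each genotype on the second. Which library came from which occasion is not stated in the sources used here. The deposited order (floxed replicates 1 and 2, controls 1 to 3, then floxed replicate 3 and control 4) holds the same numbers of each genotype. Whether it follows the occasions is not known.

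Lipoprotein receptors bring cholesterol, triglyceride-rich particles and the fat-soluble vitamins they carry into cells. Members of the low-density lipoprotein (LDL) receptor family bind apolipoproteins and many other proteins through cysteine-rich ligand-binding repeats, are taken into endosomes through coated pits, release the ligand as the endosome becomes acidic and return to the surface. VLDLR and apoER2, the product of Lrp8, also bind reelin, and the large receptors LRP1 and megalin (Lrp2) clear proteases, protease inhibitors and vitamin carriers. SORLA, the product of Sorl1, combines LDL receptor repeats with a VPS10 domain and sorts proteins between the Golgi and endosomes. SR-BI, the product of Scarb1, has another structure and takes up cholesteryl ester from high-density lipoprotein without internalising the particle. In bone, osteoblasts take up lipoproteins and the vitamins in them.

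The genes lie on 6 chromosomes of GRCm38 (mm10). Vldlr (Entrez gene 22359) is at chr19:27216480-27254231 on the plus strand, and Lrp8 (16975) at chr4:107802200-107876840 on the same strand. The others are on the minus strand, Lrp1 (16971) at chr10:127538157-127621148, Lrp2 (14725) at chr2:69424335-69586029, Sorl1 (20660) at chr9:41964709-42124297 and Scarb1 (20778) at chr5:125277087-125341094. All are protein-coding, with 13 (Scarb1) to 89 exons (Lrp1) in the longest coding transcript of the GENCODE annotation. The antisense genes Gm16217 and Gm16214 overlap Lrp1 and Sorl1, Lrp8os1 and Lrp8os2 overlap Lrp8, and Gm42633 overlaps Scarb1 on the same strand. These overlaps are of whole gene spans, introns included, and of these genes only Lrp8os2 was found by symbol among the genes counted. The strand setting of the counting is not given in the sources used here. Whether reads of these genes entered the receptor counts was not tested.

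The start regions of Vldlr and Sorl1 are shown because these were the receptors with the largest differences between the groups among the 5 that could be fitted. RefSeq (GRCm38.p6) start regions matched 5 of the 6 genes, all but Scarb1, and each window holds the 250 bases before an annotated start, 5′ to 3′ on the strand of the gene. Capitals mark a GC box (GGGCGG) or a CCAAT box (CCAAT), read on both strands. The first Vldlr window, chr19:27216234-27216483, lies at the 5′ edge of the gene. The second, chr19:27216770-27217019, lies before a start inside the gene and overlaps the first exon of a non-coding transcript that retains an intron. The Sorl1 window printed, chr9:42124298-42124547, lies directly before the gene. A second annotated Sorl1 start, inside the gene, has the window chr9:42077214-42077463.
Vldlr first start: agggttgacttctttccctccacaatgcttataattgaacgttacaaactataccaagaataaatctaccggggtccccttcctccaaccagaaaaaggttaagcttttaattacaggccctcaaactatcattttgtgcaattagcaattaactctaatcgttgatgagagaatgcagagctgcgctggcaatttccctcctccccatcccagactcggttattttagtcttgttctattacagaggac
Vldlr second start: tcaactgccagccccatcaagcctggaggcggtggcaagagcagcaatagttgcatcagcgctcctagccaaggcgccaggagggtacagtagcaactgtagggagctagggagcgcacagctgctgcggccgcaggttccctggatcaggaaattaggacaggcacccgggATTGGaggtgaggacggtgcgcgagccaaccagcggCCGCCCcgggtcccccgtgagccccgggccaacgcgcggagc
Sorl1 first start: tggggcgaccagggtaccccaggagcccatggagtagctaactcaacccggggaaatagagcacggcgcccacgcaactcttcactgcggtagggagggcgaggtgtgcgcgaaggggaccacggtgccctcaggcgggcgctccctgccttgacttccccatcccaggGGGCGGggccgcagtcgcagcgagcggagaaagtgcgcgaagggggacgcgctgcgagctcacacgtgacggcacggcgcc

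The 2 Vldlr starts differed in composition. The window of the first start was 41.6% G and C with neither box, while that of the second was 66.4% G and C and held a CCAAT box 73 bases and a GC box 36 bases before the start. The first Sorl1 window was 69.6% G and C, with 1 GC box 75 bases before the start, and the second was 47.2% G and C with neither box. Over 15022 windows of the same length, at the starts of 11827 tested genes, the median was 58.8% G and C, 53.8% of windows held a GC box and 34.8% a CCAAT box. The 3 further motifs searched on both strands were a forkhead motif (GTAAACA, in 2.24% of windows), a hypoxia motif (ACGTG, in 20.6%) and a sterol regulatory element (TCACNCCAC, in 1.02%). Of these, the first Sorl1 window held 2 copies of ACGTG, 1 on each strand and overlapping, and the second Sorl1 window and the Vldlr windows held none of the 3. A gene count sums over all starts, so it does not tell which start of Vldlr was used.

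The libraries were similar in depth and unlike in composition. Total counts were 18119947 to 19119250 in the floxed libraries and 17245556 to 22075778 in the controls. Levels are given as counts relative to library size (CPM) scaled by TMM, a normalization that centres the bulk of genes between libraries, and as RPKM, which divides CPM by the exon length of the gene in kilobases and so allows levels of different genes to be compared. Of the 27179 genes, 15074 were tested after a filter at 0.65 CPM, to be reached in 3 or more libraries. Controls 1 and 4 stood apart from the other 5 libraries on the first principal component of log2 CPM (53.1% of the variance, scores 44.4 and 71.1 beside -42.6 to -1.92), and values without both are given for Vldlr and where they turn a direction. The labels give the parent cross of each mouse. Floxed replicates 1 and 2 shared a cross that holds no control, controls 1, 2 and 4 came from crosses that hold no floxed mouse, and the pair of floxed replicate 3 and control 3 was the only one within a cross, so elsewhere cross and genotype cannot be told apart. Efnb2 itself had 322, 239 and 224 counts in the floxed libraries and 164, 139, 110 and 117 in the controls, with 14.3 ± 3.21 CPM (SD, n = 3) beside 7.31 ± 1.07 CPM (SD, n = 4). This is not the direction of a loss, and the libraries are named by their labels. The counts also cover the parts of the gene that are not deleted, and cells in which Dmp1Cre is not active. In cells sorted from other, younger mice, by PCR with primers in the targeted region, the study reported Efnb2 targeted in osteocytes and retained in non-osteocytic cells. That measure is unlike the counts over the whole gene used here. Why the level in whole flushed femora was higher was not tested. All 6 osteocyte markers were detected, with sums of 258 to 500 CPM (floxed libraries) and 156 to 621 CPM (controls).

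Sorl1 and Lrp1 were the most abundant of the 6 receptors in flushed bone and Lrp2 was close to absent. Over all 7 libraries, the level was 71.1 ± 16.8 RPKM (SD, n = 7) for Sorl1 and 57.7 ± 22.8 RPKM (SD, n = 7) for Lrp1. Scarb1 followed with 28.5 ± 8.40 RPKM (SD, n = 7) and Vldlr with 10.5 ± 5.26 RPKM (SD, n = 7). Lrp8 reached 3.67 ± 0.543 RPKM (SD, n = 7), and Lrp2 reached only 0.0231 ± 0.0104 RPKM (SD, n = 7). Among the genes tested, ordered by RPKM, Sorl1 was at percentile 94.6, Lrp1 at 92.9, Scarb1 at 82.7, Vldlr at 54.6 and Lrp8 at 29.1.

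**Figure D1:**
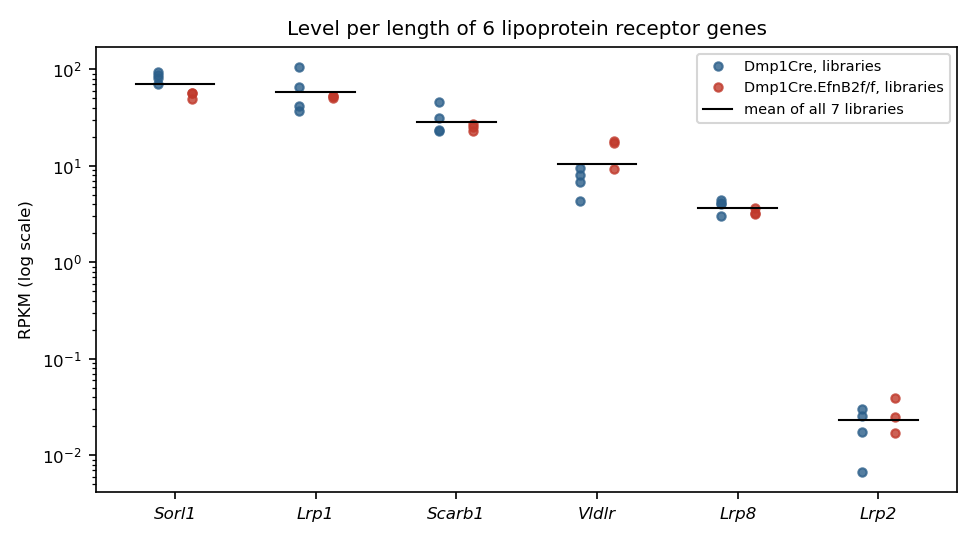
Level of each lipoprotein receptor gene in RPKM (log scale), with 1 point per library, Dmp1Cre in blue and Dmp1Cre.EfnB2f/f in red, and a line at the mean of all 7 libraries. The means fall from 71.1 for Sorl1 to 0.0231 for Lrp2, and the points of Sorl1 and Lrp1 cover much the same range.

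This order was tested between genes within each library, which the choice of the genes did not use. All 15 pairs were compared by the difference in log2 RPKM (0.5 reads added) with a two-sided exact sign-flip permutation test over the 7 libraries, whose smallest p is 0.0156, and adjusted over the 15 pairs. In 14 pairs the same gene was higher in 7 of 7 libraries (adjusted p = 0.0167, exact permutation test). The exception was Sorl1 and Lrp1, neighbours at the top of the order. Sorl1 exceeded Lrp1 by 0.35 ± 0.48 on the log2 scale (SD, n = 7) and in 5 of 7 libraries (adjusted p = 0.156, exact permutation test). Scarb1 was below Lrp1 by a mean log2 difference of 0.98 ± 0.41 (SD, n = 7), and Vldlr was above Lrp8 by 1.37 ± 0.83 (SD, n = 7). How many pairs passed depended on which length was used, because the transcripts differ in how much is non-coding. In an alternative added after the data were seen, the same exon reads were divided by coding length in place of exon length. Reads on coding bases alone were not counted, so this raises genes with long non-coding parts. The means kept their order and 10 of the 15 pairs passed. The 5 that did not were those of Lrp1 with Scarb1, Vldlr and Sorl1, and those of Vldlr with Scarb1 and Sorl1.

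Vldlr, the receptor for triglyceride-rich, apoE-bearing particles in muscle, heart and fat, showed the largest difference between the groups. It had 2591, 2752 and 1452 counts in the floxed libraries and 1294, 1000, 1340 and 659 in controls 1 to 4. In CPM these were 144, 151 and 76.6 beside 67.0, 57.1, 78.5 and 35.8. Floxed replicates 1 and 2 were far above every control, while replicate 3 lay within the control range, just under control 3 of the same parent cross (ratio 0.975). The group means were 124 ± 41.1 CPM (SD, n = 3) and 59.6 ± 18.1 CPM (SD, n = 4), with a log2 fold change of 1.06 (SE 0.31). In bulk tissue, a difference in the number of cells of a type cannot be told apart from a difference in RNA per cell. With scaling by library size alone, the lowest floxed library was at 75.9 CPM and the highest control at 75.5 CPM, so whether the groups touched depended on the scaling. With the parent cross as a block, a fit in which only the shared cross informs the genotype, the log2 fold change was -0.036. Without replicate 3 it was 1.31, and without controls 1 and 4 together 0.87. Were the deposited order that of the occasions, replicate 3 (76.6 CPM) would stand beside control 4 (35.8 CPM). Replicates 1 and 2 would stand beside controls 1 to 3. No fit used this split.

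Sorl1, the sorting receptor, was lower in the floxed libraries without overlap. Its levels were 346, 396 and 399 CPM in the floxed libraries and 611, 560, 495 and 645 CPM in the controls. Every floxed library was below every control, and within the shared cross the ratio of replicate 3 to control 3 was 0.807. The means were 380.4 ± 29.8 CPM (SD, n = 3) and 578 ± 65.5 CPM (SD, n = 4), with a log2 fold change of -0.60 (SE 0.19). In the 18 other settings tried, the log2 fold change of Sorl1 lay between -0.67 and -0.31.

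Lrp1, the multi-ligand endocytic receptor, varied far more among controls than between groups. It had 743, 790 and 783 CPM in the floxed libraries and 1567, 617, 547 and 966 CPM in the controls. The coefficient of variation was 3.28% in the former and 50.4% in the latter, where control 1 was 2.86 times control 3. The means were 772 ± 25.3 CPM (SD, n = 3) in the floxed libraries and 924 ± 466 CPM (SD, n = 4) in the controls. The log2 fold change was -0.26 (SE 0.37), and its sign held in 13 of 18 other settings. Without control 1 it was 0.12, and without controls 1 and 4 together 0.41. The sign also turned where control 1 was kept. The study's limma pipeline, run without its block for collection day, gave 0.29, and 0.049 without sample quality weights. Blocking on the parent cross gave 0.52.

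Scarb1, the receptor for high-density lipoprotein, also followed single controls. It stood at 71.6, 77.8 and 83.5 CPM in the floxed libraries and at 96.7, 73.8, 71.1 and 144 CPM in the controls. Control 4 was well above the rest, and controls 2 and 3 lay within or just under the range of the other group. The means of 77.6 ± 5.95 CPM (SD, n = 3) and 96.4 ± 33.7 CPM (SD, n = 4) gave a log2 fold change of -0.31 (SE 0.26). It was -0.055 without control 4 and 0.10 without controls 1 and 4 together, and its sign held in 15 of 18 other settings. The sign also turned with all controls kept. Blocking on the parent cross gave 0.23, and the limma pipeline without its day block gave 0.050.

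Lrp8, the closest relative of Vldlr and a reelin receptor, was low and even. Its levels were 28.2, 24.9 and 24.4 CPM in the floxed libraries and 23.2, 30.6, 34.0 and 31.9 CPM in the controls. Control 1 was below every floxed library and the other 3 controls were above them all. With 25.8 ± 2.06 CPM (SD, n = 3) and 29.9 ± 4.73 CPM (SD, n = 4), the log2 fold change was -0.21 (SE 0.18), negative in 18 of 18 other settings (-0.48 to -0.13).

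Lrp2, which encodes megalin, the receptor that recovers filtered proteins in the kidney tubule, did not pass the filter on low values and was not tested. It had 7, 11 and 5 counts in the floxed libraries and 2, 7, 8 and 5 counts in the controls. A difference between groups was not detectable at this depth.

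**Figure D2:**
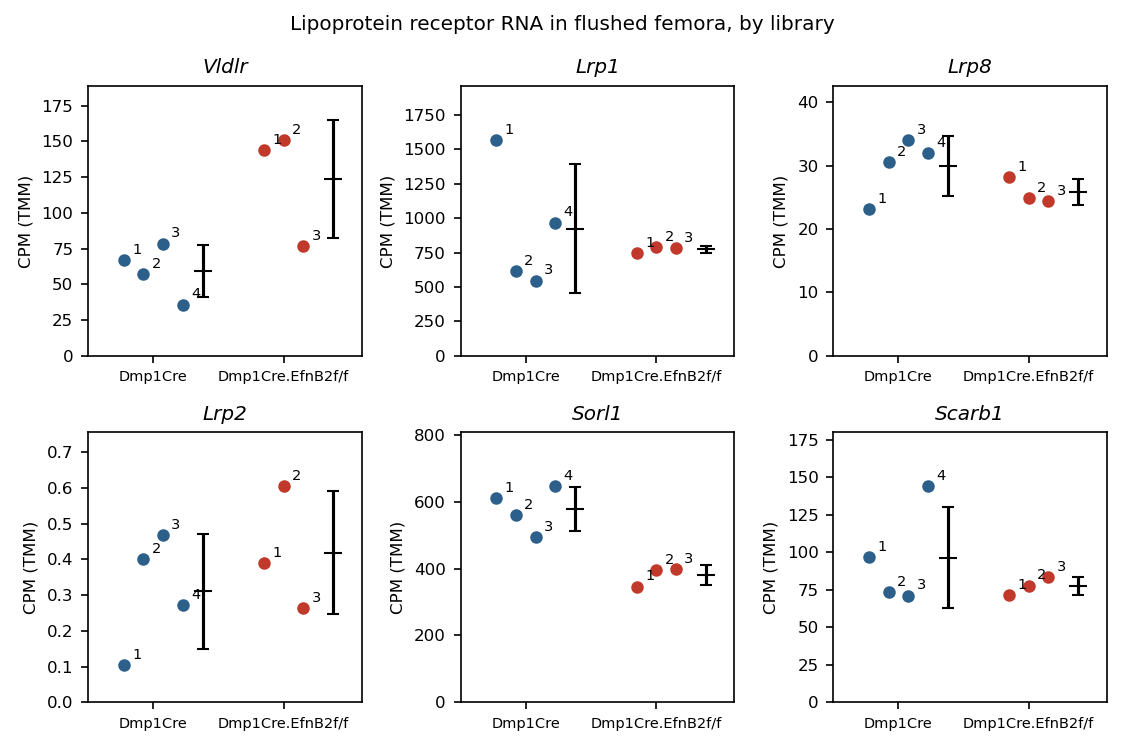
CPM (TMM-scaled) of each receptor gene in each library, numbered by replicate, with the mean and SD of each group beside the points. For Vldlr floxed replicates 1 and 2 lie at 144 and 151 CPM and replicate 3 at 76.6 CPM among the controls, and for Sorl1 all 3 lie below every control.

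Set beside all genes, these counts read as follows, and because the genes were chosen with the contrast known, nothing is drawn from them. Of the 5 receptors tested, 1 (Sorl1) had all floxed libraries below all controls, as did 6.3% of all genes tested, and 0 had all of them above, as did 5.03% of all genes. With edgeR's quasi-likelihood test and Benjamini-Hochberg adjustment, 0 of the 5 had an adjusted p under 0.05, and 0% of the 15074 genes did. At an unadjusted p under 0.05, the count was 2 of 5 (Vldlr higher, Sorl1 lower) beside 9.67% of all genes. DESeq2 called 1 of the 5 (Sorl1 lower) beside 0.478% of all genes with an adjusted p. The study's limma pipeline without the block for collection day called 3 (Vldlr higher, Sorl1 and Lrp8 lower) beside 15.1% of all genes, and the same pipeline without sample quality weights called 0. The study itself used both that block and quality weights, and listed Vldlr, as higher, among its top genes. That fit could not be repeated here without the day of each library.

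**Figure D3:**
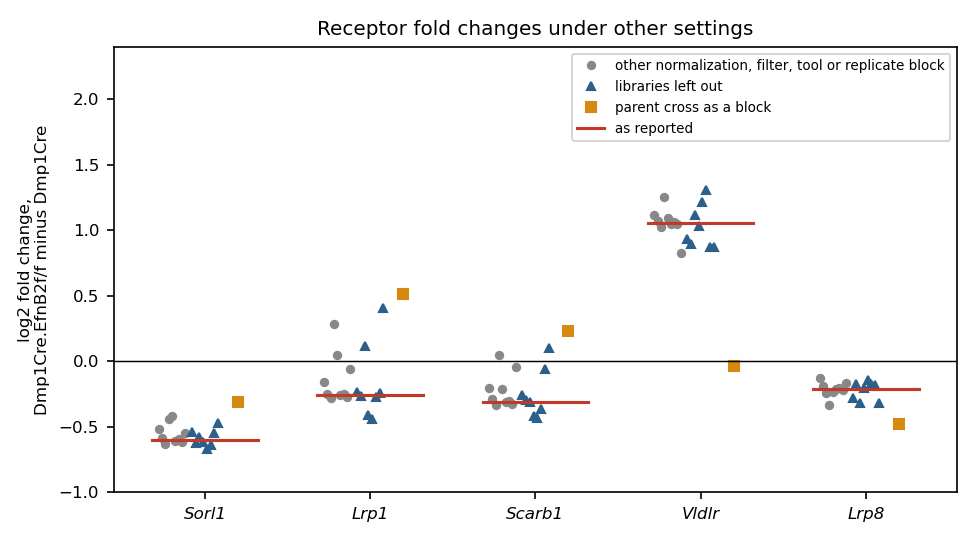
Log2 fold change (Dmp1Cre.EfnB2f/f minus Dmp1Cre) of the 5 tested receptors as reported (red line) and in 18 other settings, with other normalizations, filters, tools or the replicate block in grey, fits with libraries left out as blue triangles and the parent cross as a block in orange. Sorl1 and Lrp8 stay below 0 throughout, Vldlr stays above 0 except for -0.036 with the parent cross as a block, and Lrp1 and Scarb1 cross 0.

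The receptors did not keep the same proportions to each other, as ratios within a library show, which no scaling between libraries touches. The ratio of Vldlr to Lrp8 in RPKM was 4.72, 5.60 and 2.90 in the floxed libraries and 2.67, 1.72, 2.13 and 1.04 in the controls. The ratio of Vldlr to Sorl1 was 0.348, 0.319 and 0.160 in the former and 0.0916, 0.0851, 0.133 and 0.0464 in the latter. For both ratios, floxed replicate 3 lay nearest to the controls and above the highest of them. Lrp8 and Sorl1 were themselves lower on average in the floxed libraries (log2 fold changes -0.21 and -0.60). Ratios to Lrp1 and to Scarb1 did not part the groups in this way. Floxed replicate 3 had 9.22 RPKM of Vldlr, 52.6 of Lrp1 and 26.9 of Scarb1, beside 9.45, 36.7 and 22.9 in control 3. Both of these ratios were thus lower in floxed replicate 3 than in control 3. Of the summed RPKM of the 6 genes, Vldlr made up 12.1%, 11.6% and 6.17% in the floxed libraries and 3.43%, 4.38%, 6.52% and 2.03% in the controls. Sorl1 and Lrp1 together held most of the sum in each library, with Lrp1 between 25.4% and 44.7% and Sorl1 between 34.7% and 51.5%.

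Several cell type markers moved in part with these genes, and their part in the differences was not tested. The 8 skeletal muscle markers all had positive log2 fold changes (median 0.75), with sums of 24256, 36088 and 27754 CPM in the floxed libraries and 11718, 11661, 25139 and 12276 CPM in the controls. Control 3, which had the highest Vldlr of the controls, was also the control with the highest sum of muscle markers, but floxed replicate 3 had a high sum beside a Vldlr level within the control range. The 6 neutrophil markers all had negative log2 fold changes (median -0.51), with sums of 8475, 10428 and 10510 CPM beside 14617, 13397, 11780 and 16507 CPM, and the libraries stood in the same order by this sum as by Sorl1. The sum of the 6 osteoblast markers was 40641 CPM in control 1 and 20052 CPM in control 4, where Lrp1 was also highest, and from 8037 to 13933 CPM in the other 5 libraries. The 5 erythroid markers found all had negative log2 fold changes (median -0.98), with sums of 4253 to 9923 CPM in the floxed libraries and 11236 to 31798 CPM in the controls, the highest in control 4, where Scarb1 was highest too. Elsewhere Scarb1 parted from the erythroid sum, since controls 2 and 3 (73.8 and 71.1 CPM) lay below floxed replicates 2 and 3 (77.8 and 83.5 CPM). These 4 pairings were picked after the values were seen.

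**Figure D4:**
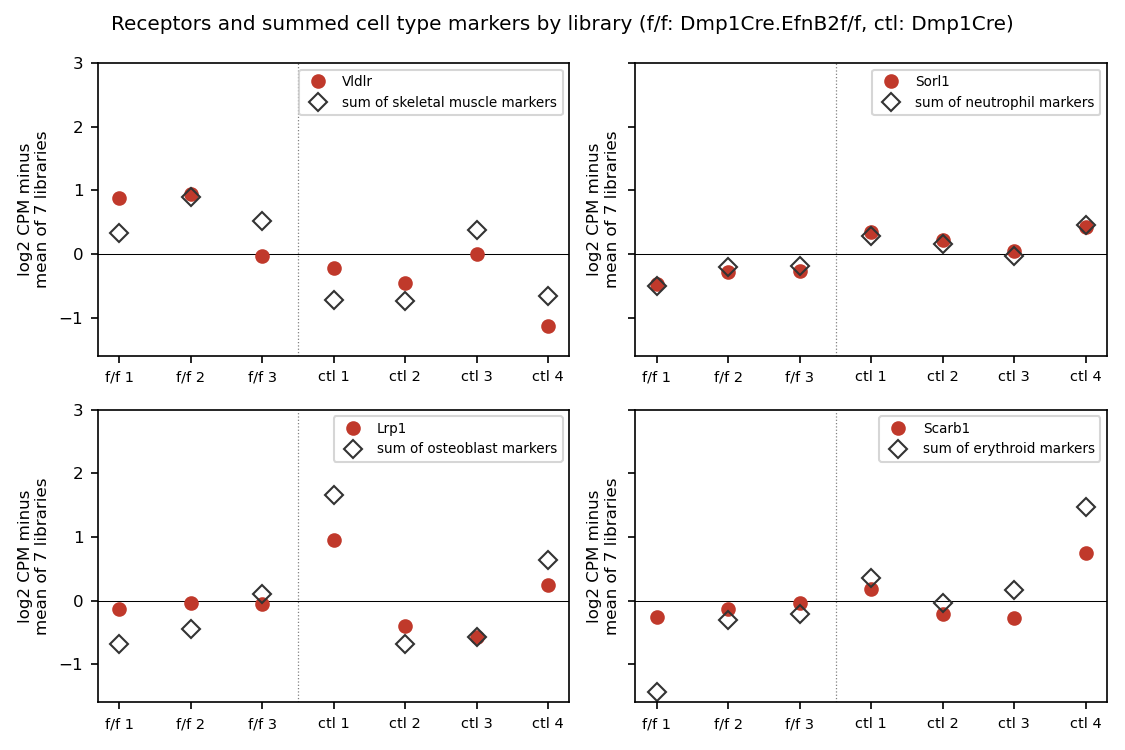
Log2 CPM minus the mean of the 7 libraries, for 4 receptors (red points) and for the summed CPM of 1 marker list each (open diamonds), by library. The neutrophil sum lies close to Sorl1 in each library, and the muscle sum parts from Vldlr in floxed replicate 3 (27754 CPM beside 76.6 CPM). The erythroid sum parts from Scarb1 in floxed replicate 1 (4253 CPM beside 71.6 CPM).

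The other marker lists had median log2 fold changes of 0.31 (endothelial, 6 of 6 positive, 434 to 526 CPM beside 329 to 446 CPM), 0.19 (osteocyte, 5 of 6 positive), 0.11 (B lineage, 5 of 6 positive), -0.11 (osteoclast, 3 of 6 positive), -0.13 (megakaryocyte, 1 of 6 positive), -0.16 (adipocyte, 3 of 6 positive), -0.30 (macrophage, 1 of 6 positive), -0.34 (osteoblast, 1 of 6 positive) and -0.52 (chondrocyte, 2 of 4 tested positive). No marker found was at 0 in all libraries.

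The tested genes whose pattern over the 7 libraries was most like that of each receptor were found by the root mean square (RMS) difference of log2 CPM after each gene was centred on its own mean. For Vldlr they were Col4a4, a collagen IV chain of basement membranes (RMS difference 0.123), Abcb1a, a drug efflux pump (0.125), Zfp354a (0.140), Asb12 (0.142) and Pcdhb18, a protocadherin (0.143), where the median over all genes was 0.726. Col4a4 had 4.06, 4.23 and 2.43 CPM in the floxed libraries and 2.02, 1.66, 1.99 and 1.20 CPM in the controls, with replicate 3 again the lowest of its group. For Sorl1 the nearest were Stxbp2 (0.0472), Ncf1, a subunit of the phagocyte NADPH oxidase (0.0481), and Lcn2, a neutrophil granule protein (0.0530), beside a median of 0.440. For Lrp1 they were Mmp23 (0.0531), Pltp, the phospholipid transfer protein of plasma lipoproteins (0.0774), and Sorcs2, a VPS10 receptor (0.0931), beside a median of 0.533. For Scarb1 they were Sec13 (0.0277), Napa (0.0325) and Rpl7a (0.0364), and for Lrp8 Tube1 (0.0666), Gripap1 (0.0727) and Dancr (0.0794). The nearest genes of Vldlr stood further from it than those of the other 4 receptors stood from theirs, and Vldlr itself varied most (RMS difference from its own mean 0.676, beside 0.198 for Lrp8 to 0.457 for Lrp1).

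Around the receptors, 99 genes of lipoprotein handling were followed in 8 lists, of which 91 were tested, 7 fell below the filter and 1 was not found by its symbol. With edgeR's quasi-likelihood test and Benjamini-Hochberg adjustment over all genes, 0 of the 91 were higher and 0 lower. At an unadjusted p under 0.05 there were 4 (4.40% beside 9.67% of all genes), among them Lpl and Gulp1 higher and Lipg lower. DESeq2 called 0 of the 91. The limma pipeline without the day block called 13 (9 higher and 4 lower, 14.3% beside 15.1% of all genes), and without quality weights it called 0. The median log2 fold change of the 91 was -0.066 with 43 positive, beside 0.012 over all genes tested. Of the 91, 3 had all floxed libraries above all controls, beside 758 (5.03%) of the 15074 genes tested. All floxed libraries were below all controls for 4 of the 91, beside 949 (6.3%) of the genes tested. Genes named below as not overlapping are to be read beside these shares.

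Among the ligands and the enzymes that act on their particles, the median log2 fold change was -0.00049 over 20 genes. Lpl, the lipase that VLDLR works beside at the vessel wall, had 428, 214 and 155 CPM in the floxed libraries and 161, 142, 151 and 90.0 CPM in the controls. Replicate 1 was far above the rest and replicate 3 was below control 1, for a log2 fold change of 0.97 (SE 0.35, adjusted p = 0.510 by edgeR with Benjamini-Hochberg adjustment). Lipg, the endothelial lipase that acts on high-density lipoprotein, had 25.8, 16.8 and 18.8 CPM beside 37.7, 28.3, 35.0 and 43.6 CPM. All 3 were below every control, for a log2 fold change of -0.82 (SE 0.22, adjusted p = 0.510 in the same test). Reln, the reelin that VLDLR and apoER2 share as a ligand, was named for that role after the values were seen, and had 58.7 ± 3.90 CPM (SD, n = 3) beside 58.6 ± 5.57 CPM (SD, n = 4).

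Of the other LDL receptor family members, 10 were tested, with a median log2 fold change of 0.13. The 2 with the lowest unadjusted p were Lrp10 (-0.46, SE 0.27) and Lrp6, the Wnt coreceptor (0.25, SE 0.15). Lrp6 had 121, 109 and 111 CPM in the floxed libraries and 99.5, 103, 97.3 and 83.0 CPM in the controls, so that all 3 were above every control by a small margin. Of the VPS10 and scavenger receptors, 8 were tested (median -0.069), and those with the lowest p were Cd36, a fatty acid and oxidised lipoprotein receptor (log2 fold change 0.68, SE 0.48), and Sort1, or sortilin, a relative of SORLA (-0.18, SE 0.17).

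The adaptors that link receptor tails to endocytosis or signalling had a median of 0.17 over 8 genes. Gulp1, an adaptor that binds the tail of LRP1, had 9.51, 8.18 and 7.38 CPM beside 6.63, 4.80, 4.45 and 2.61 CPM, all 3 above every control (log2 fold change 0.85, SE 0.30, adjusted p = 0.510 by edgeR with Benjamini-Hochberg adjustment). Shc1, a signalling adaptor, had a log2 fold change of -0.55 (SE 0.25). Over 15 chaperones, sheddases and sorting proteins the median was -0.096, and Gga1, which sorts cargo out of the Golgi (-0.41, SE 0.19), and Vps26b, a retromer subunit (-0.32, SE 0.19), had the lowest p. Among the 12 transcription regulators (median -0.075) these were Srebf2, the activator of sterol synthesis genes (-0.54, SE 0.29), and Insig2, which holds it back (0.36, SE 0.24).

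The 11 cholesterol synthesis genes had the lowest median of the 8 lists, -0.32, with 3 positive and 0 past the test. Dhcr7, which makes a last step to cholesterol, had a log2 fold change of -0.61 (SE 0.33), and Fdps, which makes farnesyl diphosphate, one of -0.60 (SE 0.36). Both were highest in control 4, at 17.7 CPM for Dhcr7 and 40.8 CPM for Fdps. The 7 genes of cholesterol efflux, storage and lysosomal release had a median of 0.052. Npc1 and Npc2, which together pass cholesterol out of the lysosome, had log2 fold changes of 0.35 (SE 0.21) and -0.42 (SE 0.26).

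**Figure D5:**
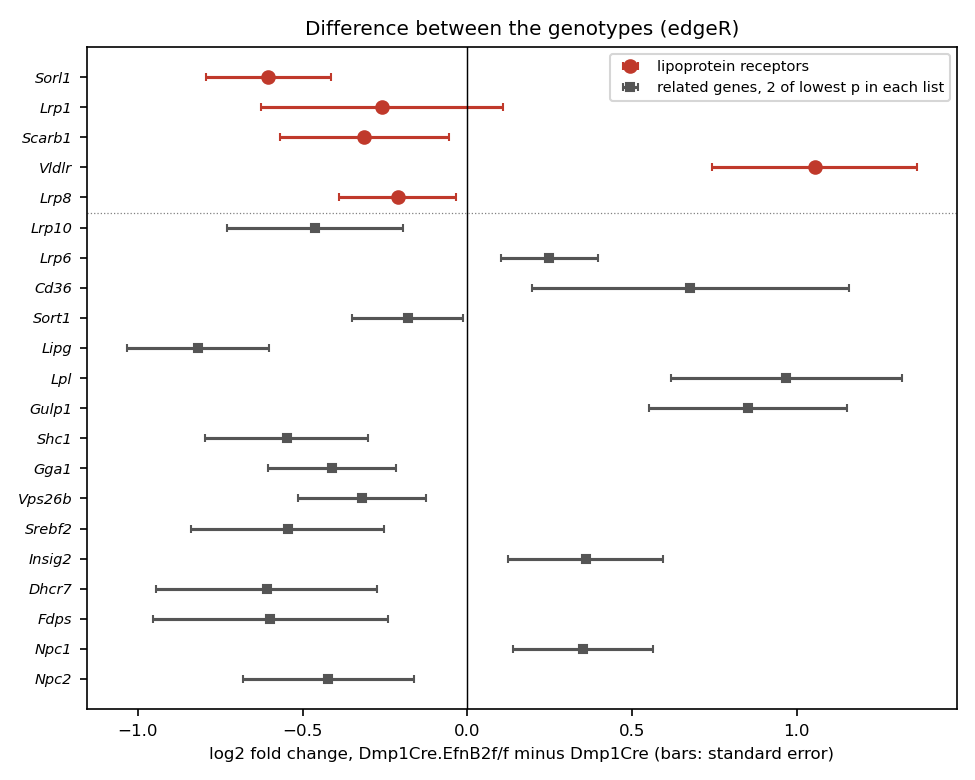
Log2 fold change (Dmp1Cre.EfnB2f/f minus Dmp1Cre) with its standard error from edgeR, for the 5 tested receptors (red circles) and for the 2 genes of lowest unadjusted p in each of 8 related lists (grey squares). Vldlr at 1.06 and Lpl at 0.97 are the highest and Lipg at -0.82 the lowest, and none had an adjusted p under 0.05.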

How the data were processed

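Raw counts per gene were deposited by the authors, who mapped paired-end reads to mm10 with Rsubread and counted them with featureCounts on its built-in Entrez annotation, without normalization or pooling. The submitters' processing notes add bcl2fastq 2.17.1.14. Other versions and the strand setting are not given in the sources used here. The table of the series and the files of the libraries held the same values (190253 of 190253).

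From the counts, CPM with TMM factors and RPKM with the exon length in the count files were computed. Of 16302 genes over the filter, classes like those the study removed were left out, namely predicted genes (722), IDs with no symbol (184, in place of obsolete IDs), immunoglobulin segments (183), pseudogenes (134), ribosomal RNA (4, with ribosomal protein genes kept) and sex-linked genes (1), so that 15074 were tested. The genotypes were compared over all 7 libraries with edgeR 4.0.16 (quasi-likelihood, robust, Benjamini-Hochberg, threshold 0.05) in R 4.3.3. The SE is the log2 fold change over the square root of the F statistic. Alternatives were DESeq2 1.42.0, the limma pipeline of the study without its block for collection day, which the labels do not give (limma 3.58.1, prior count 2), other scalings and filters, blocks for replicate number or parent cross, and each library left out. Leaving out controls 1 and 4 together, and coding length, were chosen after seeing the data. In simulated data (15074 genes, of which 200 had a log2 fold of 2) all 200 were recovered by edgeR, DESeq2 and limma, which made 10, 24 and 9 false calls. The genes changed were all well above the filter, and the simulated libraries held no shared differences like those of controls 1 and 4. The simulation therefore checks that the code runs and does not show how the tools perform on these libraries. No 2 libraries of a group agreed within sampling noise (chi-square per degree of freedom 31.2 or more).

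The receptors, the 8 related lists and the 12 marker lists were chosen with earlier results of these data known. Genes named were the 6 receptors, the 5 genes nearest to Vldlr and 3 nearest to each other tested receptor, the 2 of lowest unadjusted p in each related list, Efnb2, and those marked as named for another reason. Gene positions and start regions came from RefSeq (GRCm38.p6, 25275 of 27179 genes matched) and exons from GENCODE. Mesdc2 and the marker Hbb-bt were not found by symbol. Values of some related genes are not reported here.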

Additional observations from a re-analysis of the deposited data

How the results depend on the processing

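The count of genes past the threshold depended on the tool and on quality weights. It was 0 higher and 0 lower with edgeR, 24 and 48 with DESeq2, 1145 and 1124 with the limma pipeline without a day block, 0 and 0 with that pipeline without quality weights, and 1 and 1 without controls 1 and 4 together. Leaving out each library gave 0 to 1 higher and 0 to 2 lower. At an unadjusted p under 0.05 the count was 1457 with all libraries, and 424 without replicate 1 and 579 without replicate 2 of Dmp1Cre.EfnB2f/f, 2369 without control 3, 960 without control 4, 2612 without controls 1 and 4 together, 306 with the parent cross blocked and 4971 with the limma pipeline. Of the related genes, the limma pipeline called 13 (14.3% beside 15.1% of all genes), and 0 without quality weights.

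A block for the parent cross gave log2 fold changes of -0.036 for Vldlr, 0.52 for Lrp1, -0.48 for Lrp8, -0.31 for Sorl1 and 0.23 for Scarb1. The limma pipeline gave 0.29 for Lrp1, 0.050 for Scarb1 and -0.44 for Sorl1, and -0.42 for Sorl1 without weights. Without controls 1 and 4 together, Lrp1 was at 0.41 and Scarb1 at 0.10. The causes of these shifts were not tested. Over 18 settings the sign was the same as reported in 17 for Vldlr, 13 for Lrp1, 18 for Lrp8, 18 for Sorl1 and 15 for Scarb1, and leaving out each library gave 0.87 to 1.31, -0.44 to 0.12, -0.32 to -0.14, -0.67 to -0.54 and -0.43 to -0.055 in that order. In the order of levels, 14 of 15 pairs passed with 2 reads added. The same number passed without each library. For pairs in the same order in 7 of 7 libraries that outcome was fixed in advance, so it is no further check of them.

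Replicate numbers did not pair the libraries (correlations of deviations -0.14, 0.058 and -0.42, and 0 of 6 libraries correlated best with their own number). With the replicate block, 1 gene was higher and 0 lower, 575 had an unadjusted p under 0.05, and the log2 fold changes were 0.83 for Vldlr, -0.057 for Lrp1, -0.16 for Lrp8, -0.54 for Sorl1 and -0.041 for Scarb1. An order by protein length was not run, since no protein table was used here. Depth limits Lrp2, with 2 to 11 counts a library.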
